A study of Mus musculus with 8 samples.

Results

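The 4 thrombospondin genes Thbs1 to Thbs4 and the 6 glypican genes Gpc1 to Gpc6 were followed in the dorsal dentate gyrus of WT mice and of mice lacking Cav3.1, a T-type calcium channel. These 10 genes are a small share of the 19321 genes that the array names. All 10 had at least 1 probe, 11 probes in all, and where a gene had several the probe was selected by its mean spot intensity over all 8 arrays, the brightest being kept. That choice concerned Gpc4 alone, which had 2 probes. The genes themselves were picked from results of these same arrays, in which Thbs4 and the dimmer Gpc4 probe had been called lower in Cav3.1 KO. The difference at those 2 probes is therefore given as a description, and the p-values printed beside it are no independent test.

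Thrombospondins are large secreted glycoproteins of the extracellular matrix. Thbs1 and Thbs2 assemble into trimers, while Thbs3 and Thbs4 belong to the subgroup that assembles into pentamers. Thrombospondins released by astrocytes promote the formation of excitatory synapses, with the calcium channel auxiliary subunit alpha2delta-1 (Cacna2d1) as a neuronal receptor. Glypicans are heparan sulfate proteoglycans held at the cell surface by a lipid anchor, from which they can be shed. Gpc4 and Gpc6 from astrocytes raise the number of AMPA-type glutamate receptors at young synapses, and Gpc4 also acts on axons as a partner of the postsynaptic protein Lrrtm4 and of the mossy fibre synapse protein Gpr158.

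The series held 4 arrays of WT mice and 4 arrays of Cav3.1 KO mice, the latter lacking the channel that Cacna1g encodes. The labels describe all animals as male C57BL/6J mice of 8 to 12 weeks, without further treatment. They name no promoter, Cre line or clone for the deletion and do not say whether each array came from a separate mouse, so the p-values cover only how much these samples vary, and that variation may be technical. Amplified RNA carrying the dye Cy5 was hybridised to a single-colour TORAY chip. Values are log2 spot intensities after background correction and quantile normalisation, and each difference is the Cav3.1 KO mean less the WT mean. A probe's level cannot be set against that of another probe, so genes are not ranked by level. In tissue RNA, fewer cells of a type and less RNA per cell cannot be told apart.

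The arrays fell into 2 sets by a value of the scanner headers. Each chip was read at 3 gains, and the slope that relates the first gains was 0.478 to 0.48 on WT replicates 1, 2 and 4 and Cav3.1 KO replicate 1, against 0.485 to 0.486 on Cav3.1 KO replicates 2, 3 and 4 and WT replicate 3. The mean intensity of blank spots moved with it, at 53.0 to 56.2 in the first set and 59.7 to 63.4 in the second. Each gain-fit set thus held both genotypes, unequally, and results are given within the sets where they are of interest. On each array, 85.4% to 93.0% of probes exceeded the 95th percentile of its blank spots, which is the threshold for detection here. The dentate granule neuron markers Prox1, Dsp and C1ql2 were detected on all 8 arrays. The Cacna1g probe differed by -0.08 (SE 0.0508, limma adjusted p 0.816). Where it lies relative to the deletion is not known here, so it does not check the genotype.

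Thbs4 was the member with the lower level in Cav3.1 KO at its selected probe. Its protein is a pentameric thrombospondin of muscle, tendon, heart and brain. The normalised log2 level was 7.36, 7.36, 7.46 and 7.37 on WT replicates 1 to 4, and 6.94, 6.998, 6.99 and 7.18 on Cav3.1 KO replicates 1 to 4. Each WT array was above each Cav3.1 KO array, and Cav3.1 KO replicate 4 was the nearest to WT. The group means were 7.39 ± 0.0478 and 7.03 ± 0.102 (SD, n = 4 each), a difference of -0.36 (SE 0.0527, 95% interval -0.48 to -0.24), or 1.28-fold. The limma adjusted p over all probes was 0.0473. The normalised scale compresses dim probes, and the values deposited by the authors, from which the blank level has been subtracted, gave a wider separation. There the Thbs4 intensity ranged from 75.4 to 79.1 over the WT arrays (mean 76.7, SD 1.75, n = 4) and from 45.3 to 55.3 over the Cav3.1 KO arrays (SD 4.12, n = 4), a ratio of means of 0.652. The deposited values as a whole were shifted, with a median log2 difference of -0.07 over all their probes.

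The lower Thbs4 level was present in both gain-fit sets. The single Cav3.1 KO array of the first set was 0.42 below the mean of its 3 WT arrays. The 3 Cav3.1 KO arrays of the second set were on average 0.40 below its single WT array. That array, WT replicate 3, had the highest Thbs4 level of the WT arrays. It and Cav3.1 KO replicate 4 carry later chip numbers than the other arrays, and between them Cav3.1 KO minus WT was -0.28. With the set as a block the difference was -0.41 (SE 0.0519, limma adjusted p 0.0616). The size held while the call did not: leaving out any 1 array gave differences between -0.41 and -0.33. The call was kept without Cav3.1 KO replicate 4 (limma adjusted p 0.0103). It was lost without WT replicate 1 (0.127), 2 (0.0808), 3 (0.169) or 4 (0.157), and without Cav3.1 KO replicate 1 (0.0922), 2 (0.136) or 3 (0.151).

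The promoter of Thbs4 and that of Gpc4 are shown because a probe of each gene was lower in Cav3.1 KO. For Gpc4 this was the dimmer probe alone, assigned to a predicted transcript. Whether the Gpc4 window lies before that transcript was not tested. The sequences are the 250 bases before the annotated start in RefSeq (GRCm38.p6), which are chr13:92794819-92795068 for Thbs4 and chrX:52164924-52165173 for Gpc4, both on the minus strand and written 5′ to 3′ along the gene. Capitals mark the GC box, GGGCGG or its complement CCGCCC.

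Thbs4: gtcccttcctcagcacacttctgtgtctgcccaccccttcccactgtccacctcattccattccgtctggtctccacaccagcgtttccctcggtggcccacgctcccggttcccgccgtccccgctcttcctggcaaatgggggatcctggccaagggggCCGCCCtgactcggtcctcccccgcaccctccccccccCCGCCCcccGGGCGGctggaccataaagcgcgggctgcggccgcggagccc

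Gpc4: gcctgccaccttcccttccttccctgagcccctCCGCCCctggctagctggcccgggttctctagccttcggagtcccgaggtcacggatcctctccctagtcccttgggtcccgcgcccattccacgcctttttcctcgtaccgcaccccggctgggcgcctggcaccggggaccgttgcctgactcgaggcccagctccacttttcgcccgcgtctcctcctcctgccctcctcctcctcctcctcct

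The Thbs4 window held 3 GC boxes, which begin 89, 51 and 42 bases before the start, and the Gpc4 window held 1, which begins 217 bases before it. The table gave a promoter for 7 of the 10 members, and among them Gpc2 and Gpc3 also held 3 GC boxes, Thbs3 and Gpc5 held 1 and Thbs2 held 0. Of all 32851 promoter windows of this length, 32.7% held a GC box on either strand. The TATA box TATAAA was in the windows of Thbs2 and Gpc5 and in 12.4% of all. The E box CACGTG (6.0% of all) and the consensus glucocorticoid response element (0.009% of all) were in none of the 7, both strands searched. The GC box and the TATA box share no end letters on either strand and so cannot overlap. G and C made up 70.8% of the Thbs4 window and 68.4% of the Gpc4 window, against a median of 52.4%. The share was 71.6% for Gpc3 and 66.4% for Gpc2, whose levels are given below. A match of letters is no evidence that a factor binds there.

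The other thrombospondins did not pass the test. Thbs1, the best-known member and an inhibitor of blood vessel growth, exceeded the blank threshold on 3 of 8 arrays and was not tested. Its spots lay 0.274 to 1.96 units above the mean blank on WT arrays and 0.552 to 4.89 on Cav3.1 KO arrays, so the array gives no usable Thbs1 level here. Thbs2, which like Thbs1 restrains vessel growth and promotes synapse formation, was detected on all 8 arrays and was dim. Its normalised log2 level was 6.21, 6.06, 6.05 and 6.07 on WT replicates 1 to 4 and 6.12, 6.20, 6.16 and 6.07 on Cav3.1 KO replicates 1 to 4. The groups overlapped, and WT replicate 1 stood above the other WT arrays. The difference was 0.04 (SE 0.0451, 95% interval -0.06 to 0.15, limma adjusted p 0.959). Thbs3, the second pentameric member, was at 6.29, 6.27, 6.27 and 6.19 in WT and at 6.22, 6.26, 6.24 and 6.22 in Cav3.1 KO. These values overlapped as well, with a difference of -0.02 (SE 0.0288, 95% interval -0.09 to 0.04, limma adjusted p 0.971). The intervals of Thbs2 and Thbs3 lie apart from that of Thbs4, although on this scale dim probes move less. The call of Thbs4 was known when the genes were picked, so this contrast is a description. After subtraction of the mean blank, the differences were 0.18 (SE 0.174) for Thbs2 and -0.07 (SE 0.0964) for Thbs3, against -0.56 (SE 0.104) for Thbs4.

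**Figure D1:**
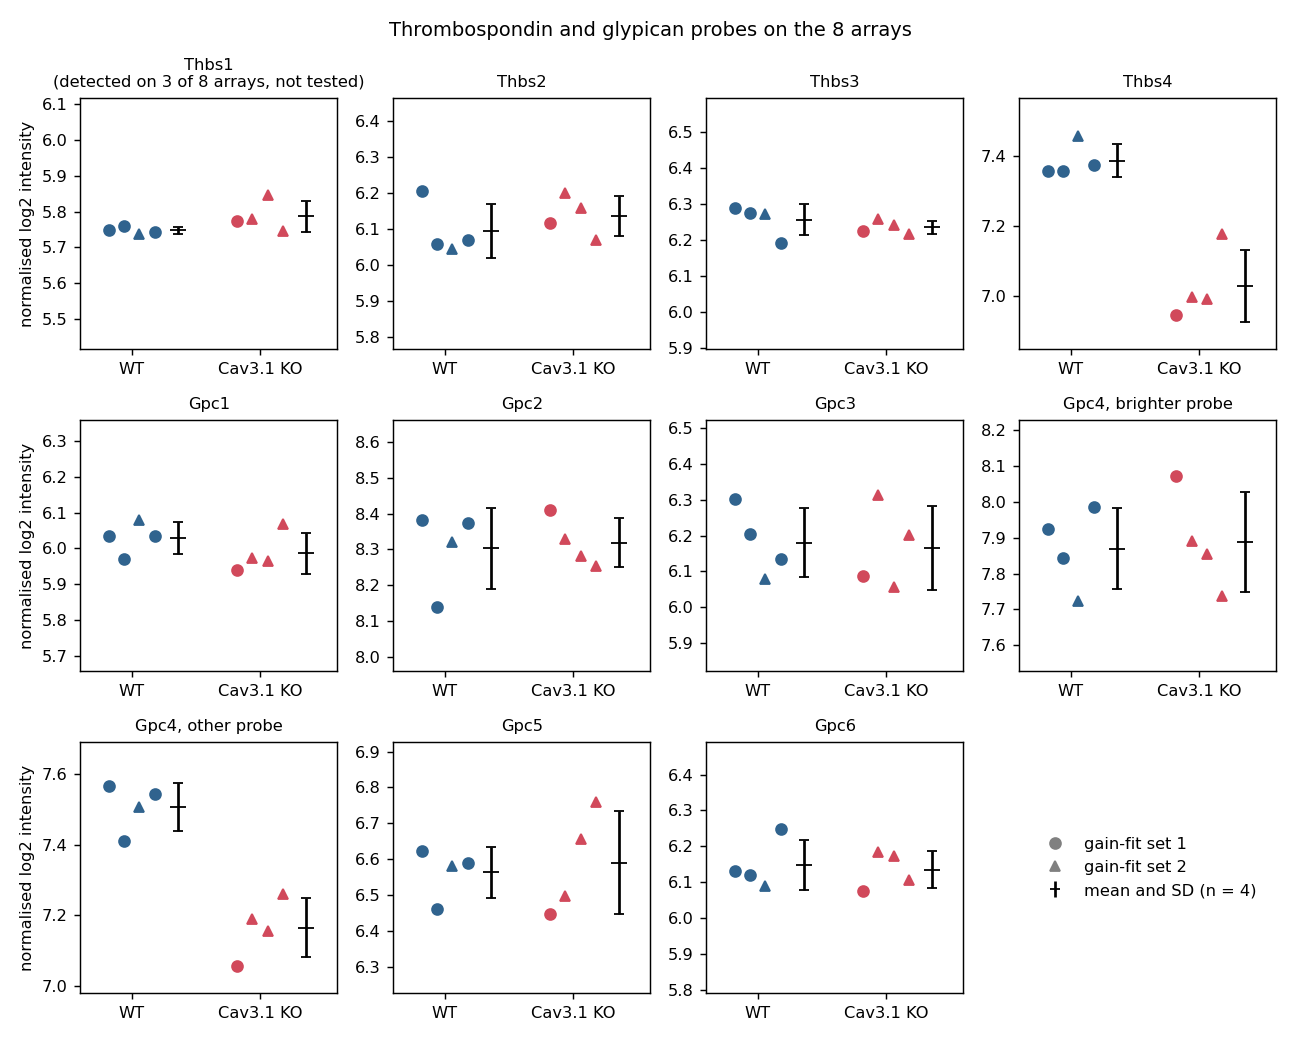
Normalised log2 intensity (vertical axis, with its own range in each panel) of all 11 probes on the 4 WT and 4 Cav3.1 KO arrays. Points are arrays in the order of their replicate numbers, circles and triangles mark the gain-fit sets, and bars give mean and SD. The groups separate for Thbs4 and for the other Gpc4 probe, and overlap in the remaining panels.

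Gpc4 gave different answers at its probes. The brighter probe, which the annotation assigns to a curated RefSeq transcript, was at 7.92, 7.84, 7.72 and 7.98 on WT replicates 1 to 4 and at 8.07, 7.89, 7.85 and 7.74 on Cav3.1 KO replicates 1 to 4. The groups overlapped, with means of 7.87 ± 0.113 and 7.89 ± 0.139 (SD, n = 4 each). The difference was 0.02 (SE 0.0795, 95% interval -0.16 to 0.20, limma adjusted p 0.996). It turned to -0.03 with median centring and to -0.05 in the values deposited by the authors, where the median over all probes was -0.07. The other probe, assigned to a predicted RefSeq transcript of the gene, was at 7.56, 7.41, 7.51 and 7.54 in WT and at 7.06, 7.19, 7.15 and 7.26 in Cav3.1 KO. Here each WT array was above each Cav3.1 KO array. The means were 7.51 ± 0.068 and 7.17 ± 0.0841 (SD, n = 4 each), and the difference was -0.34 (SE 0.0507, 95% interval -0.46 to -0.22, limma adjusted p 0.049). In the values deposited by the authors this probe read 86.8 ± 6.73 in WT and 58.6 ± 4.44 in Cav3.1 KO (SD, n = 4 each), a ratio of 0.674, while the brighter probe read 123 ± 17.1 and 119 ± 16.8, a ratio of 0.968.

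The gap between the Gpc4 probes can be followed array by array. The other probe minus the brighter one was -0.36, -0.43, -0.22 and -0.44 on WT replicates 1 to 4 and -1.01, -0.70, -0.70 and -0.48 on Cav3.1 KO replicates 1 to 4. The gap was wider on each Cav3.1 KO array than on any WT array, by 0.36 on average. Within each genotype it was narrowest on WT replicate 3 and on replicate 4 of Cav3.1 KO. Those arrays carry later chip numbers than the remaining 6. Gpc4 was chosen for a call at 1 of these probes, so the gap is a description. Of 1130 genes with several tested probes, 4 had a called probe, Gpc4 among them, and in all 4 another probe of the same gene was not called. With 0.288% of all probes called, an uncalled second probe is the usual case. Between the probes of a gene, the genotype difference varied by a median of 0.0545 over the 1130 genes and by 0.359 for Gpc4. In 8 genes (0.708%), Gpc4 included, it varied at least as much as in Gpc4. The sequences of the probes are not used here, so neither where they lie in Gpc4 nor which transcripts they detect was tested.

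**Figure D2:**
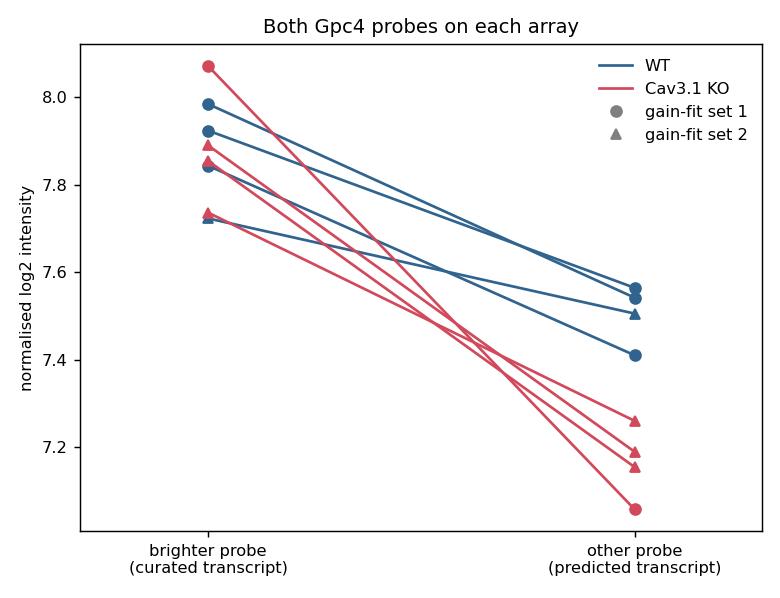
Normalised log2 intensity (vertical axis) at both Gpc4 probes (horizontal axis), each line being 1 array, coloured by genotype and marked by gain-fit set. The lines mix at the brighter probe, and at the other probe all Cav3.1 KO arrays (7.06 to 7.26) are below all WT arrays (7.41 to 7.56).

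The Gpc4 probes were also read within the gain-fit sets. At the brighter probe, the second gain-fit set was 0.22 lower than the first with genotype in the model (limma adjusted p 0.523), at the other probe it was 0.07 higher (limma adjusted p 0.737), and the difference between the probes in this was not tested. At the brighter probe, the genotype difference with the set as a block was 0.13 (SE 0.0531, limma adjusted p 0.49). Within the first set the brighter probe was 0.15 higher in Cav3.1 KO, and within the second 0.10 higher. In the second set, the arrays with later chip numbers, WT replicate 3 and Cav3.1 KO replicate 4, were at 7.72 and 7.74. Cav3.1 KO replicates 2 and 3 were at 7.89 and 7.85. Between the arrays with later chip numbers, Cav3.1 KO minus WT was 0.01 at the brighter probe and -0.25 at the other. Whether the lower level went with gain-fit set or with chip number was not tested. At the other probe, the genotype difference was -0.45 within the first set, -0.30 within the second and -0.38 with the set as a block (SE 0.0561, limma adjusted p 0.0957). The call at the other probe was kept without WT replicate 2 (limma adjusted p 0.0479). It was lost without WT replicate 1 (0.146), 3 (0.181) or 4 (0.174), and without Cav3.1 KO replicate 1 (0.0753), 2 (0.129), 3 (0.152) or 4 (0.0593), while the difference stayed between -0.37 and -0.30.

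The remaining glypicans did not pass the test. Gpc2, also called cerebroglycan, is a glypican of developing neurons. Its normalised log2 level was 8.38, 8.14, 8.32 and 8.37 in WT and 8.41, 8.33, 8.28 and 8.25 in Cav3.1 KO. The values overlapped, and the spread between the WT arrays exceeded the difference of 0.02 (SE 0.0604, 95% interval -0.12 to 0.15, limma adjusted p 0.996). Gpc5, which binds Hedgehog proteins and is made by astrocytes, was at 6.62, 6.46, 6.58 and 6.59 in WT and at 6.45, 6.498, 6.66 and 6.76 in Cav3.1 KO. Its Cav3.1 KO arrays lay both below and above the WT arrays, with a difference of 0.03 (SE 0.0717, 95% interval -0.14 to 0.19, limma adjusted p 0.993).

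Gpc6 has been described as the companion of Gpc4 in astrocyte-driven synapse maturation. It was at 6.13, 6.12, 6.09 and 6.25 in WT and at 6.08, 6.19, 6.17 and 6.11 in Cav3.1 KO, which differ by -0.01 (SE 0.0425, 95% interval -0.11 to 0.09, limma adjusted p 0.995) with overlapping groups. Gpc1, a co-receptor for fibroblast growth factors, was at 6.03, 5.97, 6.08 and 6.04 in WT and at 5.94, 5.97, 5.96 and 6.07 in Cav3.1 KO. It differed by -0.04 (SE 0.0372, 95% interval -0.13 to 0.04, limma adjusted p 0.925), and the groups overlapped through WT replicate 2 and Cav3.1 KO replicate 4. Gpc3, which restrains Hedgehog signalling and lies next to Gpc4 on chromosome X with no annotated gene between them, was at 6.30, 6.21, 6.08 and 6.13 in WT and at 6.09, 6.31, 6.06 and 6.20 in Cav3.1 KO. Its groups overlapped throughout (difference -0.02, SE 0.0684, 95% interval -0.17 to 0.14, limma adjusted p 0.996). Gpc1, Gpc3 and Gpc6 were dim, with group means of 10.5 to 20.4 intensity units above the mean blank. After its subtraction they differed by -0.25 (SE 0.18), -0.07 (SE 0.243) and -0.04 (SE 0.156), so these values were imprecise.

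**Figure D3:**
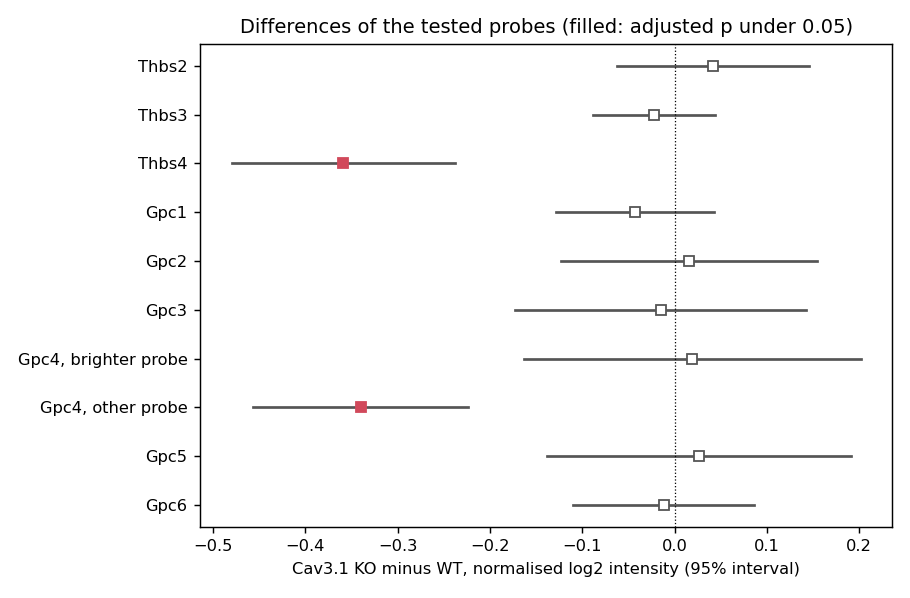
Cav3.1 KO minus WT in normalised log2 intensity (horizontal axis) with its 95% interval for the 10 tested probes; filled squares passed an adjusted p of 0.05. The intervals of the 8 remaining probes include 0. Those of Thbs4 (-0.36) and the other Gpc4 probe (-0.34) do not, and both were known as calls when the genes were picked.

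Of the 9 members tested at their selected probe, 1 passed, Thbs4, which fell. Over all 21150 probes tested, 0.288% passed in either direction and 0.0898% passed as lower in Cav3.1 KO. The members were chosen from this same contrast, so nothing is read from their count. The groups did not overlap, with lower values in Cav3.1 KO, at 2.53% of all probes, and with higher values at 2.42%.

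**Figure D4:**
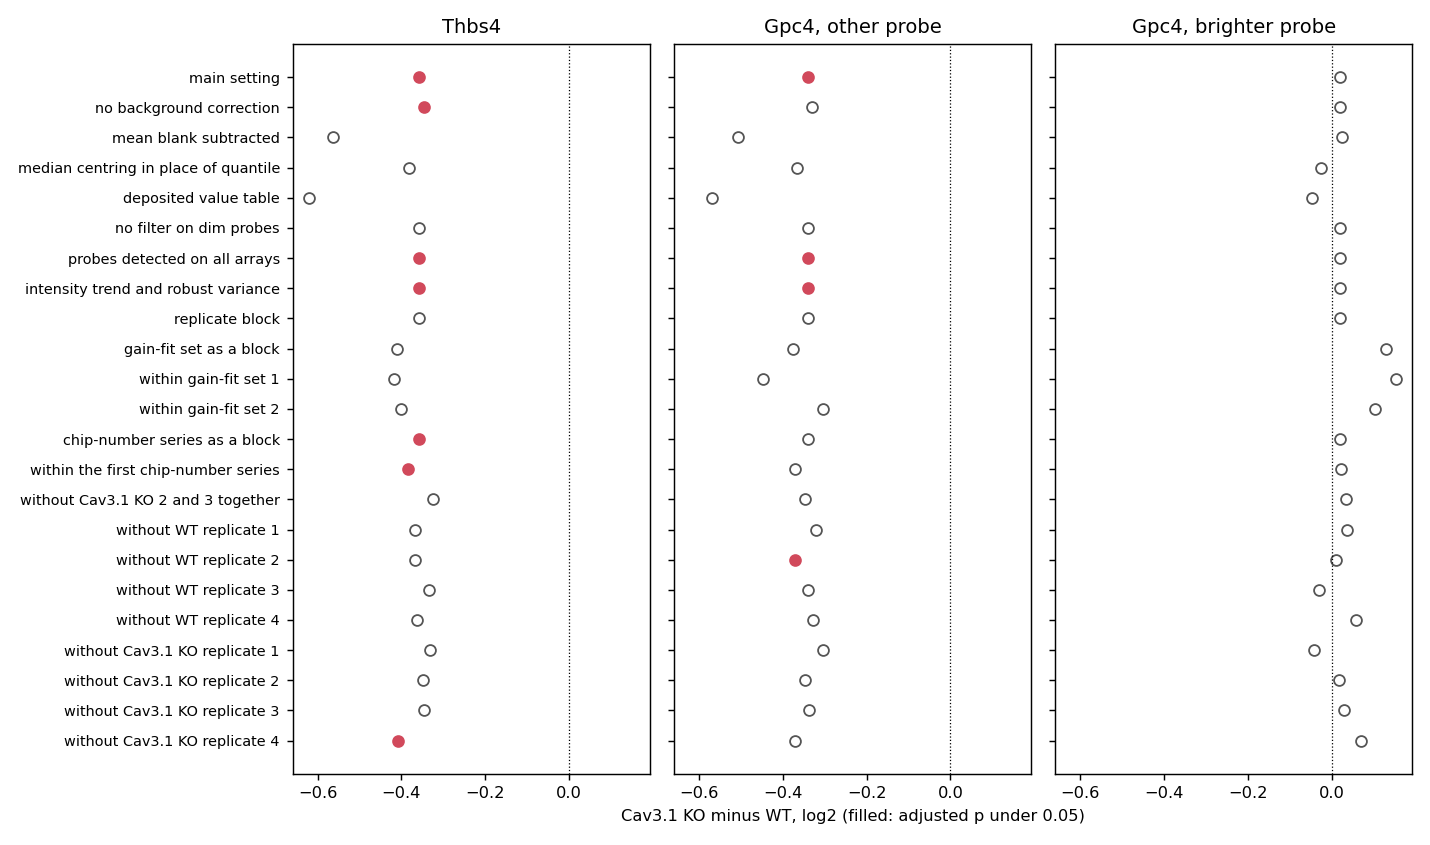
Cav3.1 KO minus WT on a log2 scale (horizontal axis) for Thbs4 and both Gpc4 probes in the main setting and under 22 alternatives (vertical axis); filled points passed an adjusted p of 0.05. Thbs4 and the other Gpc4 probe were lower in Cav3.1 KO throughout, with most points open, and the brighter Gpc4 probe scattered around 0.

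Genes of the pathways around both families were counted in the same fit, from lists drawn up with earlier results of these arrays known. Among thrombospondin receptors and partners, 12 of 26 tested genes were higher and 14 lower, 0 passed the limma test, and the median difference was -0.003 against -0.0008 for all probes. The synaptic thrombospondin receptor gene Cacna2d1 averaged 8.79 ± 0.0516 over the WT arrays and 8.94 ± 0.204 over the Cav3.1 KO arrays (SD, n = 4 each), a difference of 0.15 (SE 0.0926, limma adjusted p 0.806). The related subunit gene Cacna2d2 differed by 0.16 (SE 0.11, limma adjusted p 0.867). Tgfb2, whose family of latent growth factors thrombospondin-1 can activate, differed by 0.17 (SE 0.0678), and Vldlr, a lipoprotein and reelin receptor, by -0.15 (SE 0.0734), with limma adjusted p-values of 0.569 and 0.708.

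Among glypican partners at synapses and enzymes of glypican release, 6 of 18 tested genes were higher and 12 lower, 0 passed the limma test, and the median was -0.03. Nptx1, the neuronal pentraxin through which astrocyte Gpc4 acts on AMPA receptors, averaged 9.08 ± 0.129 over the WT arrays and 8.77 ± 0.081 over the Cav3.1 KO arrays (SD, n = 4 each). The groups did not overlap, and the difference of -0.31 (SE 0.0685, limma adjusted p 0.166) did not pass. Ptprf, a receptor phosphatase of the family that binds heparan sulfate, did not overlap either and differed by 0.12 (SE 0.0283, limma adjusted p 0.211). Nrxn2, a presynaptic neurexin, differed by 0.22 (SE 0.0964) and Lrrtm4 by -0.07 (SE 0.036), with limma adjusted p-values of 0.617 and 0.694 and overlapping groups.

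Heparan sulfate enzymes build and edit the sugar chains of glypicans. Of 25 tested, 14 were higher and 11 lower, 0 passed the limma test, and the median was 0.02. Hs3st5 averaged 5.95 ± 0.0187 over the WT arrays and 6.12 ± 0.0595 over the Cav3.1 KO arrays (SD, n = 4 each), with no overlap, a difference of 0.17 (SE 0.0337) and a limma adjusted p of 0.126. Hs3st1, another 3-O-sulfotransferase gene, differed by -0.28 (SE 0.0917), the chain-starting xylosyltransferase gene Xylt2 by 0.20 (SE 0.0629) and the 6-O-sulfotransferase gene Hs6st2 by 0.31 (SE 0.102). Their limma adjusted p-values were 0.394, 0.379 and 0.415.

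Of the other secreted and phagocytic synapse regulators listed for astrocytes, 6 of 16 were higher and 10 lower, with a median of -0.02 and 0 past the limma test. Which cells made these transcripts cannot be read from the tissue RNA. The neurotrophin gene Bdnf averaged 8.00 ± 0.197 over the WT arrays and 7.49 ± 0.191 over the Cav3.1 KO arrays (SD, n = 4 each), a difference of -0.51 (SE 0.12, limma adjusted p 0.207) with no overlap. Sparc, a matrix glycoprotein that opposes the synapse-promoting hevin (Sparcl1), differed by 0.36 (SE 0.0897), the phagocytic receptor gene Mertk by 0.25 (SE 0.0791) and the cytokine gene Il33 by -0.19 (SE 0.0735). The limma adjusted p-values of Sparc, Mertk and Il33 were 0.239, 0.38 and 0.542. Sparc and Mertk did not overlap between the groups, nor did Chrdl1, which was higher by 0.06 (SE 0.0246, limma adjusted p 0.564). Among other heparan sulfate proteoglycans, 8 of 13 were higher and 5 lower, with a median of 0.02 and 0 past the limma test. The semaphorin co-receptor gene Nrp1 differed by -0.23 (SE 0.0937), the basement membrane gene Hspg2 by -0.04 (SE 0.024), and the syndecan genes Sdc2 and Sdc3 by 0.08 (SE 0.0657) and 0.03 (SE 0.0245). Their limma adjusted p-values were 0.587, 0.749, 0.918 and 0.936. Over all probes tested, 1713 had an unadjusted p under 0.05. The groups did not overlap at 2.53% of all probes as lower in Cav3.1 KO and at 2.42% as higher.

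**Figure D5:**
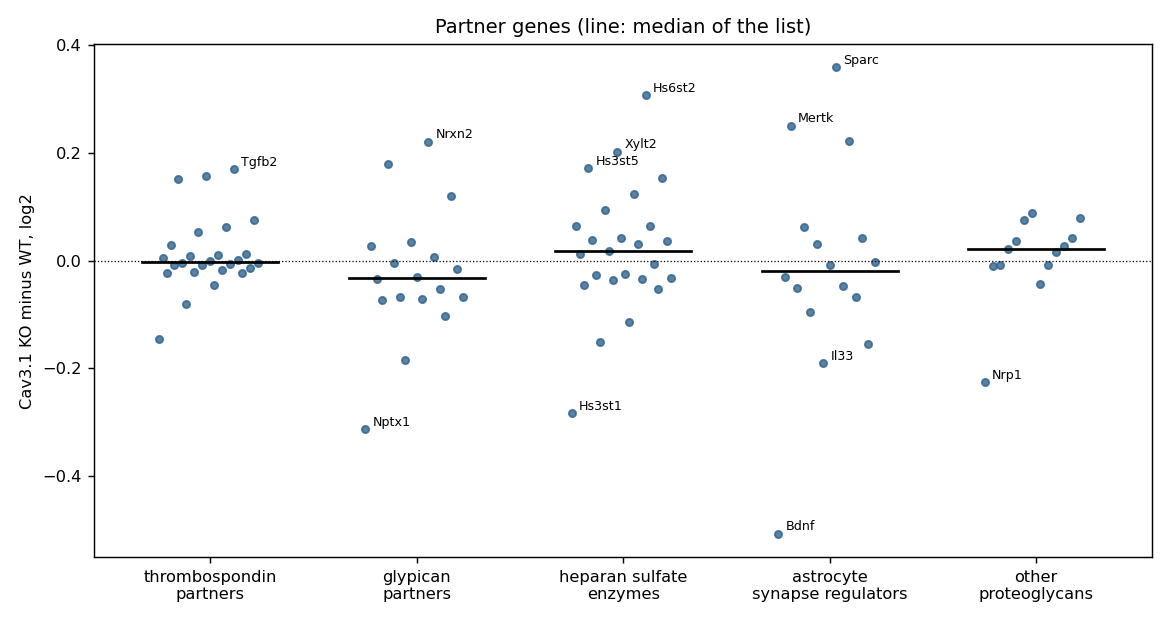
Cav3.1 KO minus WT in normalised log2 intensity (vertical axis) for each tested gene of 5 partner lists (horizontal axis), with a line at the list's median and the names of the genes with the smallest p whose difference exceeded 0.16 in size. The medians lie between -0.03 and 0.02, and 0 of the genes passed the test.

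Thrombospondins and glypicans are made by several cell types, so marker levels are given beside them. Of astrocyte markers 6 of 9 were higher and 3 lower, and their mean log2 level was 8.56 to 8.60 on WT arrays and 8.55 to 8.65 on Cav3.1 KO arrays. Gfap, Aqp4 and Aldh1l1 differed by 0.01, 0.004 and 0.01. Gjb6, the astrocyte connexin-30 gene, rose by 0.38 (SE 0.0481, limma adjusted p 0.0269). The mean of 8 mature granule neuron markers was 7.28 to 7.40 on WT arrays and 7.09 to 7.29 on Cav3.1 KO arrays, with 5 lower and 3 higher. C1ql2 differed by -0.57 (limma adjusted p 0.0065) and Trpc6 by -0.57 (limma adjusted p 0.104). Calb1 went the other way, at 0.34 (limma adjusted p 0.523), and Prox1 and Dsp differed by -0.05 and 0.04. Plk5 differed by -0.19 (limma adjusted p 0.082), Lct by -0.25 (limma adjusted p 0.231) and Tdo2 by 0.07 (limma adjusted p 0.996). A shift in granule neuron content was not tested. Microglia markers were lower for 6 of 6 tested (mean 7.85 to 8.02 on WT arrays, 7.78 to 7.93 on Cav3.1 KO arrays). Of the meningeal fibroblast markers, 6 of 8 were lower (6.78 to 7.23 against 6.73 to 7.06). Of the oligodendrocyte markers, 5 of 8 were lower (8.95 to 9.07 against 8.83 to 9.21). The meningeal mean differed by -0.09, and by -0.008 without WT replicate 1. The oligodendrocyte mean differed by -0.05, and by 0.00015 without Cav3.1 KO replicate 4. The granule neuron mean differed by -0.15, and by -0.18 to -0.12 with any 1 array left out. The microglia mean differed by -0.11, and by -0.15 to -0.09 with any 1 array left out. Without Cav3.1 KO replicates 2 and 3 together, these means differed by -0.10 for granule neurons and -0.05 for microglia. Endothelial cell and pericyte markers were the list whose mean did not overlap between the groups, at 7.56 to 7.65 on WT arrays and 7.47 to 7.55 on Cav3.1 KO arrays, with 4 of 8 lower and 4 higher. Cldn5, the tight junction claudin-5 gene, fell by 0.79 (SE 0.0922, limma adjusted p 0.0182), and without it the mean of the list differed by 0.01 in place of -0.09. The means of interneuron markers (8.76 to 8.97 against 8.72 to 9.10) and of CA field and mossy cell markers (7.81 to 7.93 against 7.75 to 7.88) overlapped, with 5 of 7 and 4 of 8 higher.

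Markers of neighbouring tissue differed more in mean level. Thalamus and habenula markers were higher for 8 of 9 tested, with means of 6.74 to 7.30 on WT arrays and 6.91 to 8.03 on Cav3.1 KO arrays, and the defining marker Tcf7l2 was detected on 1 array. The difference of the means was 0.47, and it was -0.08 without Cav3.1 KO replicates 2 and 3, which were at 8.03 each. Choroid plexus and ependyma markers were lower for 7 of 7, at 7.23 to 8.48 on WT arrays and 6.25 to 8.42 on Cav3.1 KO arrays. The lowest value was that of Cav3.1 KO replicate 4, and without this array the difference of the means turned from -0.37 to 0.07. With Cav3.1 KO replicates 2 and 3 left out together, arrays that an earlier analysis had found highest in thalamus and habenula markers, Thbs4 differed by -0.33 (limma adjusted p 0.266) and the other Gpc4 probe by -0.35 (limma adjusted p 0.249). The part of the marker differences in the Thbs4 and Gpc4 results was not tested beyond these values.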

How the data were processed

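Per the file headers, each of the 8 scanner files holds the median spot intensity at 635 nm, not normalised; no source used here says how the 3 gains were merged. The value table deposited by the authors is on a linear intensity scale with a median of 25 on each array, blank level subtracted, as found by comparison with the scanner values; no source used here names its normalisation. A second scanner intensity, headed as background per the file headers, followed its own spot (r 0.994 to 0.996 between logarithms) and was not subtracted.

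The design presupposed no local background: normexp (offset 50) was fitted to the spot intensities, followed by log2 and quantile normalisation. Of 23473 probes, 2239 detected on fewer than 4 arrays and 84 with a spot marked not good were left out. The remaining 21150 were fitted with limma 3.58.1 in R 4.3.3 (group means, Benjamini-Hochberg, threshold 0.05). The procedure was also run on simulated data with independent noise at each probe. That simulation held no gain-fit sets, chip numbers or neighbouring tissue, so it does not cover them. A gene was read at its brightest probe. Named genes were the members, Cacna1g and, per partner list, genes past the threshold or else the 4 with the smallest p. Chrdl1 was added because its groups did not overlap. The members and lists were chosen with earlier results of these data known. Alternatives changed the background, normalisation, filter, variance model, blocks and arrays. The number of arrays limits the precision.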

Additional observations from a re-analysis of the deposited data

Results flagged for a closer look

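Among the 20 groups of 4 arrays formed by the 10 tested probes, 2 held an array far from the others, where chance flags about 1 group in 20. Thbs4 on WT replicate 3 was at 7.46 while the other WT arrays lay between 7.36 and 7.37, so that its gap took up 0.845 of the group's range, above the critical 0.829. Thbs2 on WT replicate 1 was at 6.21 with the other WT arrays between 6.05 and 6.07, a share of 0.847.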

How the results depend on the processing

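Calls were less stable than differences. Against 61 probes called and 1 member, Thbs4, in the main setting, counts were 36 probes and 0 members with median centring, 34 and 0 in the deposited value table, 8 and 0 with the replicate block, 23 and 0 with the gain-fit set as a block, 0 and 0 within either gain-fit set by limma (1 array on one side, assumed to vary like the others), 7 and 1 within the first chip-number series, and 17 and 0 without Cav3.1 KO replicates 2 and 3. Leaving out 1 array gave 16 (without WT replicate 4) to 49 probes and 0 to 1 members. With the mean blank subtracted or no filter on dim probes, 0 members were called. Thbs4 stayed called with no background correction (58 probes and 1 member) and with probes detected on all arrays (60 and 1). The same held with an intensity trend and robust variance (81 and 1) and with the chip-number series as a block (44 and 1). The gain-fit set itself, with genotype in the model, passed at 0 probes. Replicate numbers did not pair the arrays (correlations of deviations -0.115 to 0.0109). The chip-number series and the arrays left out of marker means were chosen after seeing the data.

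Thbs4 and the other Gpc4 probe kept their direction in all 22 alternatives, and were called in 6 and 3 of them. The uncalled members near 0 turned sign in some. Gpc4 was at -0.340 at its other probe, -0.0259 with median centring and -0.0467 in the value table, and -0.0419 to 0.0698 with 1 array left out. Gpc2 was at -0.0381 and -0.0559 in the same settings and -0.0320 within gain-fit set 2, and -0.0393 to 0.0416 with 1 array left out. Gpc3 was at 0.113 within set 2, and -0.0648 to 0.0257 with 1 array left out. Gpc5 was at -0.00248 in the value table, -0.0272 with the set as a block, -0.110 within set 1 and -0.0235 within the first chip-number series, and -0.0296 to 0.0743 with 1 array left out. Gpc6 was at 0.00213 with median centring and 0.0657 within set 2, and -0.0313 to 0.0218 with 1 array left out. Thbs2 was at -0.00246 without Cav3.1 KO replicates 2 and 3. In the value table the median difference over all probes was -0.0656, against -0.0008 in the main setting. The cause of the sign changes was not tested. The tested probes of Thbs2, Thbs3, Gpc1, Gpc3 and Gpc6 lay close to the blank level, which limits what could be seen there. The same holds for the partner genes Hs3st5, Lrrtm4, Hspg2, Sdc3 and Chrdl1.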
